A study of Mus musculus with 12 samples.

Results

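Srebf2, Hmgcs1, Idi1, Fdps, Sqle, Lss, Insig1 and Abca1 are 8 genes through which a cell senses, makes and exports cholesterol. They were chosen by name from the 25699 genes of a table of normalized RNA counts, and all 8 had a row there. Over the same genes, with 1000 bases on either side, lay 33 of the 114469 regions in which an ATAC-seq peak was called in at least 1 library. The libraries came from mouse T cells, titled Th2 cells (the helper subset behind allergic responses), of the genotypes cKO, the usual short form of conditional knockout, and WT. RNA-seq and ATAC-seq, in which a transposase cuts accessible DNA and the cut sites are sequenced, were each run on 3 cKO-labelled and 3 WT libraries, 12 in all. The series title names the transcription factor NRF2, which Nfe2l2 encodes, and the design text describes mouse models of allergic asthma. Which gene or exon was deleted, the Cre driver, the strain, the age, the tissue and any treatment are not given in the labels used here. Nor do the labels say whether the replicates came from separate animals, so the p-values measure the spread between these libraries, which may be technical.

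Cholesterol is built from acetyl-CoA through mevalonate, isopentenyl and farnesyl diphosphate, squalene and lanosterol. SREBP2, the product of Srebf2, is held in the endoplasmic reticulum by INSIG proteins when sterols are plentiful. When sterols fall it moves to the Golgi, is cut, and switches on genes of synthesis and uptake through sterol regulatory elements, usually with the CCAAT-binding factor NF-Y. In the opposite state oxysterols activate the liver X receptors, which switch on the efflux pump ABCA1, and activated T cells are known to raise sterol synthesis as they grow and divide.

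Because the results below turn on open chromatin over gene starts, the 250 bases before the start of 6 of the 8 genes are shown, from RefSeq on GRCm38.p6 (mm10, the build of the peak files). Each is read 5′ to 3′ on the strand of its gene. For Lss and Abca1 the start used here lies inside the gene span given below, so part of their 250 bases falls within that span. Capitals mark matches, on either strand, to TCACNCCAC (the sterol regulatory element), CCAAT (which reads ATTGG on the opposite strand) and the direct repeat bound by liver X receptors (GGTNA, then any 5 bases, then GGTCA).
Srebf2, chr15:82147019-82147268, plus strand: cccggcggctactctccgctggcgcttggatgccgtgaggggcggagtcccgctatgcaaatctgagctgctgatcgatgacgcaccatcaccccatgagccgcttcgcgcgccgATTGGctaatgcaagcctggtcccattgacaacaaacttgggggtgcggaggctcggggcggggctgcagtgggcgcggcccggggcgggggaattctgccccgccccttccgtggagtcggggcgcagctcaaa
Hmgcs1, chr13:119690101-119690350, plus strand: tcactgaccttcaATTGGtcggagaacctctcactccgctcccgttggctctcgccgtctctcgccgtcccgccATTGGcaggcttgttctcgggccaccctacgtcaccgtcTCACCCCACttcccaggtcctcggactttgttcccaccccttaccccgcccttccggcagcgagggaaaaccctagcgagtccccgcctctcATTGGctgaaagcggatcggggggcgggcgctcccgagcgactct
Idi1, chr13:8885356-8885605, plus strand: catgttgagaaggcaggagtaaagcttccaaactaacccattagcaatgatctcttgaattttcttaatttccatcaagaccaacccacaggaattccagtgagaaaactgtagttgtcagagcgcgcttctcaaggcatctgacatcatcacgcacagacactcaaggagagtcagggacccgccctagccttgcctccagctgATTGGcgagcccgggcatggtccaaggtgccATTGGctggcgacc
Lss, chr10:76531355-76531604, plus strand: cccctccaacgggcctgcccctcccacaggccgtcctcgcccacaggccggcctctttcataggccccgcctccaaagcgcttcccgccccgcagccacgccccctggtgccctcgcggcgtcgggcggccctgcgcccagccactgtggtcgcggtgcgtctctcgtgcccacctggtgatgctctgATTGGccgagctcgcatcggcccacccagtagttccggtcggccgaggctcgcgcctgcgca
Insig1, chr5:28071162-28071411, plus strand: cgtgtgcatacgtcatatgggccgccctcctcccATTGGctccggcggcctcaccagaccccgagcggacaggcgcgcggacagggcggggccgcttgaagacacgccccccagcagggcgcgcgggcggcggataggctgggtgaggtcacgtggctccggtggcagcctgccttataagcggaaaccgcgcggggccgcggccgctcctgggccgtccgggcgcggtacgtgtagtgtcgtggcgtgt
Abca1, chr4:53159896-53160145, minus strand: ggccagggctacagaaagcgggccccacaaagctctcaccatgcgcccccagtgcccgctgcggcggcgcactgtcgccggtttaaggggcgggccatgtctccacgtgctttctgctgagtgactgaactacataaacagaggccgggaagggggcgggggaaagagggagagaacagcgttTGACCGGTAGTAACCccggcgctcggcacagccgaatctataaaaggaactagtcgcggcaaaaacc

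Over the whole windows of 250 bases before to 50 after the start, a sterol regulatory element was found in 1 of the 6, Hmgcs1, at bases -137 to -129, against 1.24% of the 32851 mouse promoter windows of the same length. The CCAAT box was found in 5 of 6, all but Abca1, against 37.41% of all windows. Hmgcs1 held 4 copies of it, 1 of them after the start, and Idi1 held 2. Abca1 alone of the 6 held the liver X receptor repeat, on the strand opposite to the gene, so that bases -67 to -53 of the gene strand read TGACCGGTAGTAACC, against 0.21% of all windows. Those bases precede the start used here but lie inside the Abca1 gene span given below. The GC box GGGCGG, read by SP1-type factors, was in 6 of 6, against 56.78% of the windows of genes tested in the RNA data. TGACNNNGC, the core of the antioxidant response element that NRF2 binds, was in 0 of 6, against 12.39% of all windows. Of 34 further pathway genes with a window, 24 held a CCAAT box, 1 (Stard3) the sterol regulatory element and 1 (Srebf1) the liver X receptor repeat. A match describes the letters in a window and is no evidence of binding. Nor does a missing match to 1 fixed pattern in so short a window show that a gene lacks such an element.

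Several properties of the libraries move with the genotype labels. Nfe2l2 was at 452.8, 326.4 and 391.5 normalized counts in the cKO-labelled libraries and at 169.9, 155.3 and 147.4 in WT, so its transcript was not lower under the knockout label. Every direction below is therefore that of the libraries labelled cKO. Transcripts of the Y-linked genes Ddx3y and Eif2s3y were listed at 0 in all 3 cKO-labelled RNA libraries and at 116.8 to 140.5 in WT. Xist, the X-linked transcript of female cells, was at 6284.2, 4331.3 and 7069.1 in cKO-labelled and 4046.9, 3879.3 and 3173.6 in WT libraries. Each WT library thus held both Y-linked transcripts and Xist, and whether it mixes the sexes was not tested. Genotype and the sex make-up of the libraries cannot be told apart. T cell markers were high in both groups (10 of 10 with a row, summed level 17216 to 24445 in cKO-labelled and 18260 to 21337 in WT libraries). The 8 Th2 markers summed to 1485.5 to 1972 in cKO-labelled and 1839 to 2290 in WT libraries, with overlap. Among them the regulator Gata3 averaged 715.7 over the 6 libraries, Il13 ran from 322.4 to 438.1 in cKO-labelled and from 644.6 to 1092.6 in WT libraries, Ccr4 was at 708.9, 418.7 and 750.4 in cKO-labelled libraries against 465.9, 496.7 and 449.6 in WT, and Il4 and Ptgdr2 stayed at or under 6.7 throughout. The 2 of 6 eosinophil, basophil and mast cell markers with a row summed to 31.1 to 40.7 in cKO-labelled and 19.5 to 27.9 in WT libraries without overlap. Most of this sum was 1 low gene, Siglecf (32.5, 26.7 and 39.3 in cKO-labelled, 19.5, 22.5 and 23.6 in WT libraries). Cpa3, the other, stayed at or under 5.4 and overlapped. Separation in either direction was seen in 17.2% of all genes tested. The sums of the B cell, macrophage, epithelial and stromal, and CD8 T and NK lists overlapped. The part of these cell types in the results was not tested. RNA totals ran from 6431071 to 7371993 normalized counts, and the raw depth is unknown. ATAC libraries held 13149952 to 18327127 tags, with 34.87% to 35.42% of them in peaks in the cKO-labelled libraries and 38.28%, 25.22% and 35.63% in WT replicates 1, 2 and 3.

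The RNA comparison asked whether transcripts of the cholesterol genes differ between the genotypes. None of the 8 passed an adjusted p of 0.05 in limma, 4 had a positive and 4 a negative change, and the median log2 change, cKO over WT, was -0.04. The enzymes of the first steps, Hmgcs1, Idi1 and Fdps, had log2 changes between -0.42 and -0.29, while the later enzymes Sqle and Lss were at 0.02 and 0.21. Srebf2 itself was at 0.34. Across all 18073 genes tested with limma, 37 passed, 6 higher and 31 lower in cKO-labelled libraries, which is 0.205%, and the median change was 0.06. A count of 0 of 8 is thus near the background, and 1 of the 8, Idi1, had an unadjusted p below 0.05, against 12.1% of all genes.

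**Figure D1:**
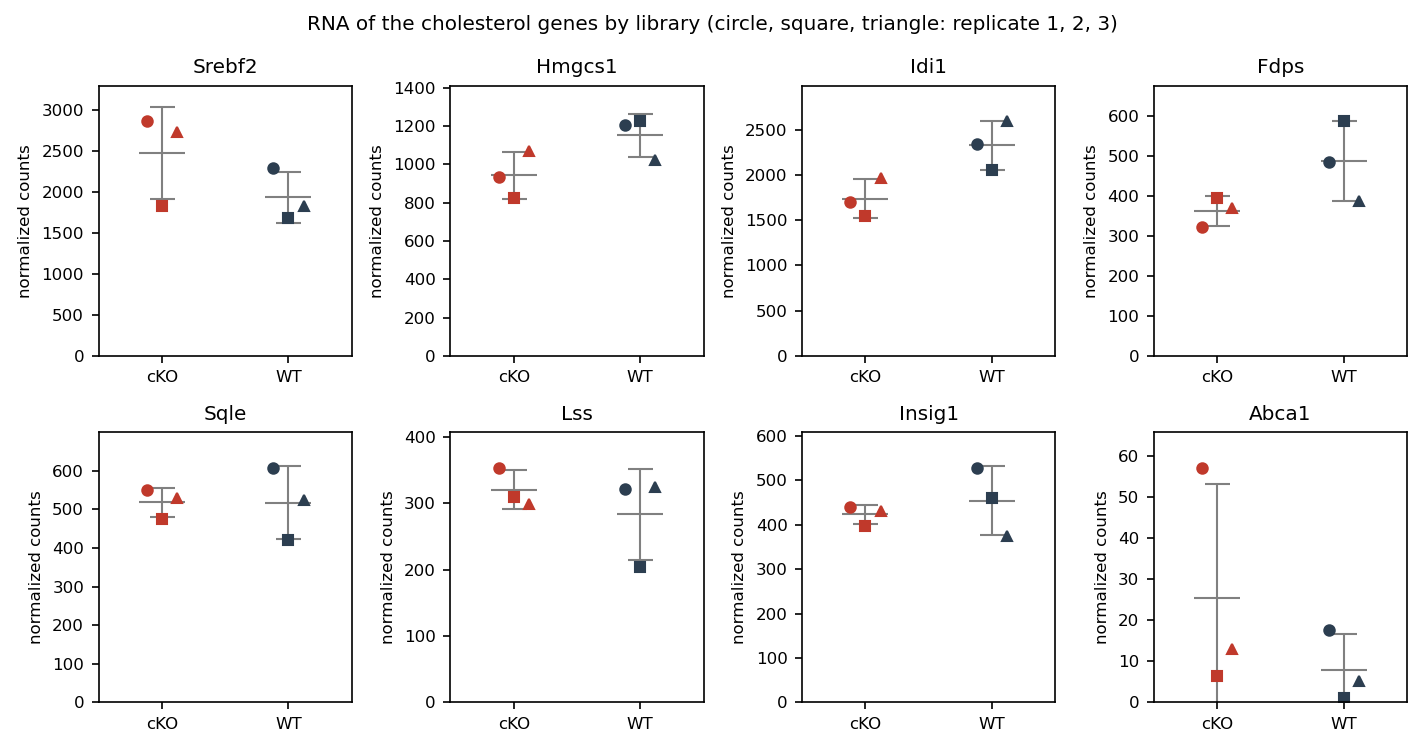
Normalized counts (vertical axes, from 0, a separate scale for each gene) of the 8 genes in each RNA library, with cKO-labelled libraries on the left and WT on the right. Circles, squares and triangles are replicates 1, 2 and 3, long bars are group means and whiskers the SD (n = 3), cut off at 0 for Abca1. Only for Idi1 do the groups not overlap, with cKO-labelled libraries at 1547 to 1969 and WT at 2054 to 2594.

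Srebf2, on chromosome 15 at 82147269 to 82205379 (all gene positions on GRCm38), encodes the membrane-bound factor that drives the whole pathway. It was at 2864, 1829 and 2737 normalized counts in cKO-labelled libraries 1, 2 and 3, against 2287, 1685 and 1834 in WT libraries 1, 2 and 3. Replicates 1 and 3 of cKO stood above all WT libraries, but replicate 2 lay inside the WT range. The means were 2477 ± 564 in cKO-labelled and 1935 ± 314 in WT libraries (SD, n = 3 each). The log2 change of 0.34 (SE 0.19, 95% interval -0.07 to 0.75) did not pass (limma adjusted p = 0.501).

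Insig1, on chromosome 5 at 28071412 to 28078662, encodes the sterol-regulated anchor that retains the SREBP escort, and is itself a classical SREBP2 target. Its values were 441, 398 and 431 in cKO-labelled libraries, against 529, 461 and 375 in WT libraries. The cKO-labelled values lay wholly inside the wider WT range. The log2 change was -0.09 (SE 0.20, 95% interval -0.51 to 0.33, limma adjusted p = 0.894).

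Hmgcs1, on chromosome 13 at 119690351 to 119708260, encodes the cytosolic synthase that makes HMG-CoA, the precursor of mevalonate. It was at 932, 825 and 1069 normalized counts in cKO-labelled libraries, against 1206, 1225 and 1021 in WT libraries. The groups overlapped through replicate 3 of each. The means were 942.0 ± 122.7 in cKO-labelled and 1150.5 ± 112.6 in WT libraries (SD, n = 3 each), a log2 change of -0.29 (SE 0.17, 95% interval -0.65 to 0.07, limma adjusted p = 0.512).

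Idi1, also on chromosome 13, at 8885606 to 8892396, encodes the isomerase that interconverts the isopentenyl diphosphates. It had 1696.5, 1547 and 1969 normalized counts in cKO-labelled libraries, against 2341, 2054 and 2594 in WT libraries. All 3 cKO-labelled values lay below all 3 WT values. Such a separation with cKO-labelled libraries lower was seen in 9.76% of all genes tested. The means were 1738 ± 214 in cKO-labelled and 2330 ± 270.1 in WT libraries (SD, n = 3 each). Its log2 change was -0.42 (SE 0.15, 95% interval -0.76 to -0.09) with an unadjusted p of 0.0165, and it did not pass after adjustment over all genes (limma adjusted p = 0.288).

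Fdps, on chromosome 3 at 89093588 to 89101967, encodes the synthase of farnesyl diphosphate, the last intermediate shared by sterols and protein prenylation. It was at 321, 394 and 369 in cKO-labelled libraries, against 485, 586 and 387 in WT libraries. The groups overlapped only through cKO-labelled replicate 2 and WT replicate 3, which differed by few counts. The means were 361.3 ± 37.3 in cKO-labelled and 486.0 ± 99.7 in WT libraries (SD, n = 3 each), and the log2 change was -0.41 (SE 0.21, 95% interval -0.86 to 0.04, limma adjusted p = 0.459).

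Sqle, on chromosome 15 at 59315092 to 59331193, encodes the epoxidase that commits squalene to sterols. Its values were 549, 476 and 529.7 in cKO-labelled libraries, against 608, 420.1 and 525 in WT libraries. The cKO-labelled values lay within the WT range, the log2 change was 0.02 (SE 0.19) and its 95% interval, -0.40 to 0.43, leaves changes of either sign (limma adjusted p = 0.982).

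Lss, on chromosome 10 at 76531565 to 76557139, encodes the cyclase that forms lanosterol. It was at 354, 310.4 and 298 in cKO-labelled libraries, against 321, 204 and 325 in WT libraries. WT replicate 2 stood apart at the low end, and without it the log2 change of 0.21 (SE 0.23, 95% interval -0.30 to 0.71, limma adjusted p = 0.766) turned to -0.015.

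Abca1, on chromosome 4 at 53030789 to 53159988, encodes the pump that loads cellular cholesterol onto apolipoproteins. It was at 57.2, 6.46 and 12.95 in cKO-labelled libraries, against 17.8, 1.04 and 5.12 in WT libraries. The mean of 25.6 ± 27.6 in cKO-labelled libraries rested on replicate 1, and the WT mean was 7.97 ± 8.72 (SD, n = 3 each). The log2 change, on the scale of the value plus 1, which understates changes of low genes, was 1.57 (SE 1.01, 95% interval -0.62 to 3.75, limma adjusted p = 0.573). It was 0.77 without WT replicate 2 and 2.37 without WT replicate 1, and without cKO-labelled replicate 1 the mean fell under the minimum of 10 for a test. Macrophages are known to express Abca1 highly: their 10 markers, 7 with a row here, summed to 109.2, 153.8 and 191.9 in cKO-labelled replicates 1, 2 and 3 and to 202.2, 170.3 and 114.1 in WT replicates 1, 2 and 3. Their part in the Abca1 values was not tested, and fewer cells of a type and less RNA per cell cannot be told apart in bulk samples.

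The authors' deposited table gives adjusted p-values for 7 of the 8 genes, from 0.129 for Idi1 to 1 for Sqle, and a p without adjustment of 0.119 for Abca1. There, 5.68% of the 9263 genes with an adjusted p were below 0.05, and 0 of these 7 were.

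The enzymes did not move as a block from library to library. Over the 6 libraries Hmgcs1 correlated with Fdps at a Pearson r of 0.72 and with Idi1 at 0.68, and Sqle with Lss at 0.81, while Fdps and Lss ran opposite at -0.82. Srebf2 correlated with Abca1 at 0.89 and with Fdps at -0.65. These coefficients describe 6 points that share the genotype contrast and each library's normalization. Among 11936 other genes with a mean of at least 50, those whose log2 values followed the mean standardized value of the 5 enzymes most closely were Mlkl and Srm (r = 0.996 each), Hnrnpab and Asb2 (0.995 each) and Lap3 (0.994), over the same 6 libraries. Mlkl encodes the effector of necroptosis, Srm spermidine synthase, Hnrnpab an RNA-binding protein, Asb2 a ubiquitin ligase subunit and Lap3 a leucine aminopeptidase. None of the 5 passed the test between genotypes (log2 changes from -0.88 to -0.19). The best of 11936 genes over 6 points can reach such values without any link to the enzymes, and whether these exceed that was not tested. Nor does the mean stand for a shared course of the 5 enzymes, since Fdps and Lss ran opposite.

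A list of 47 further genes of the pathway gave the surroundings of the 8. Of the 45 with a row, 41 reached a mean of 10, and 0 of them passed in limma in either direction, against 0.205% of all genes tested. An unadjusted limma p below 0.05 was seen for 4 of the 41, against 12.1% of all genes tested. Of the 41, 26 had a positive and 15 a negative log2 change, with a median of 0.09. Over all genes tested 55% were positive with a median of 0.06. The 19 enzymes of sterol synthesis examined, the 5 above included, divided into 9 positive and 10 negative. Among those of the list, 1 of 4 enzymes of the early steps was positive and 3 were negative. Of the 10 later enzymes of the list, 6 were positive and 4 negative.

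**Figure D2:**
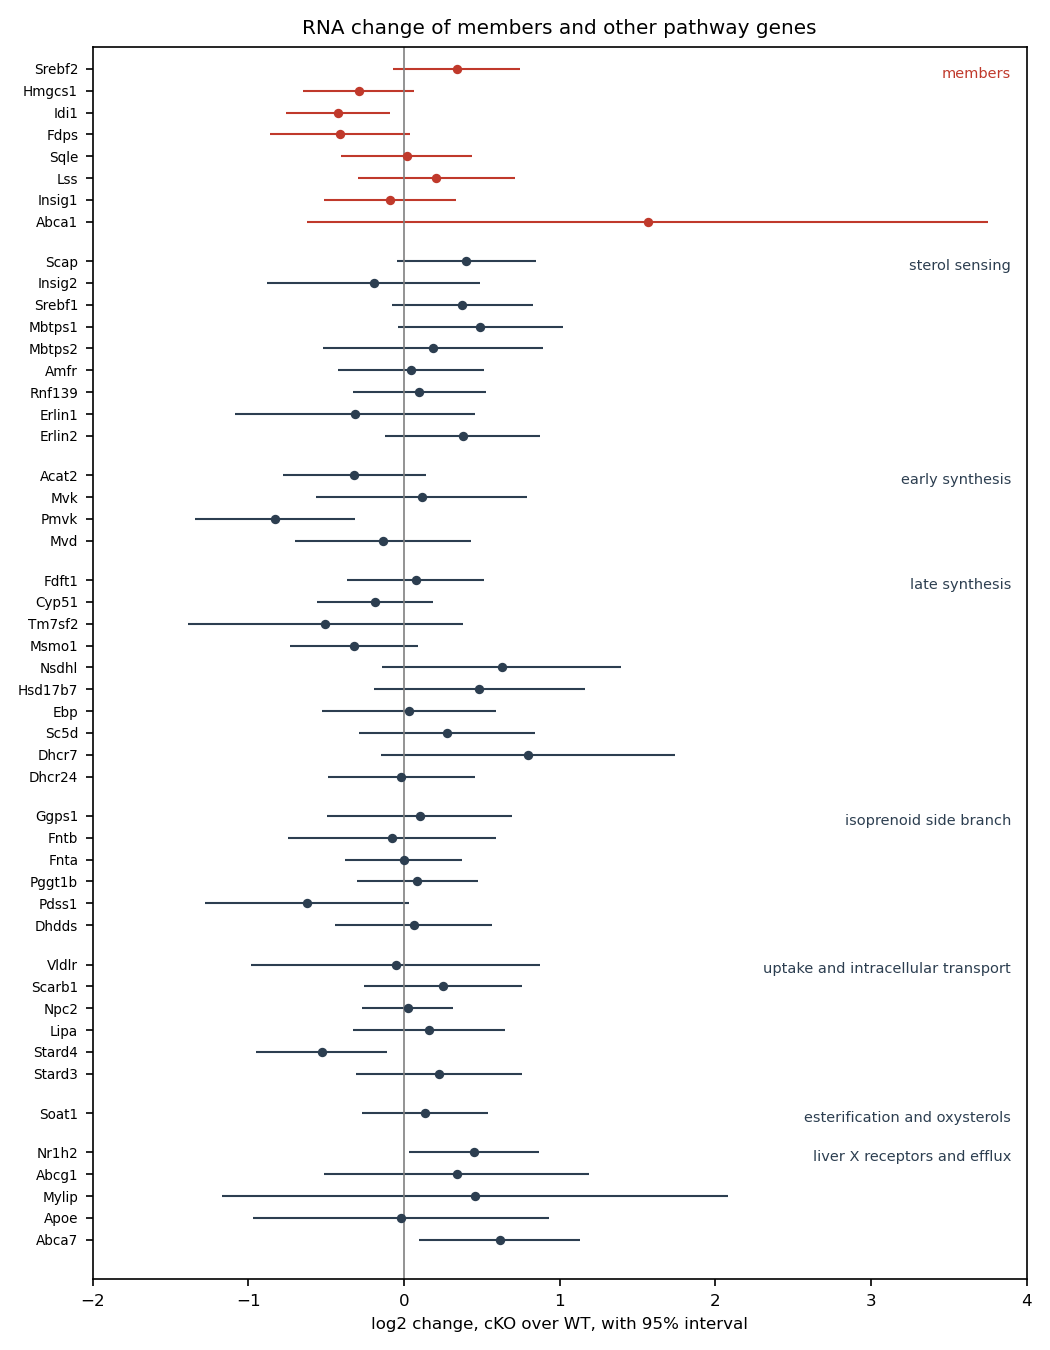
Log2 change, cKO over WT (horizontal axis), of the 8 genes (red, top) and of 41 further pathway genes by role (dark), with points for the limma estimate and lines for the 95% interval (3 libraries per group). Most intervals cross 0, and those of Idi1, Pmvk, Stard4, Nr1h2 and Abca7 do not, although none of these 5 passed adjustment over all genes.

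Among the early steps Pmvk, phosphomevalonate kinase, averaged 167.1 ± 29.8 normalized counts in cKO-labelled and 296.6 ± 44.6 in WT libraries without overlap (SD, n = 3 each; log2 change -0.83, SE 0.24, limma adjusted p = 0.173). It was the only gene of the list and the 8 below 0.05 in the authors' deposited table (adjusted p = 0.0315). Acat2, which joins acetyl-CoA units, averaged 231.4 ± 29.8 in cKO-labelled and 287.5 ± 11.2 in WT libraries, also without overlap (log2 change -0.32, limma adjusted p = 0.582). Mvd, the decarboxylase that follows Pmvk, had a log2 change of -0.14.

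Of the later enzymes the sterol dehydrogenase gene Nsdhl, which is X-linked, averaged 68.4 ± 11.4 in cKO-labelled and 43.6 ± 4.16 in WT libraries without overlap (log2 change 0.63, limma adjusted p = 0.508). Dhcr7, the last reductase of one branch, averaged 236.2 ± 187.4 in cKO-labelled and 112.5 ± 23.8 in WT libraries, a mean raised by cKO-labelled replicate 2 at 450.5. Msmo1, a methyl sterol oxidase, had a log2 change of -0.32. In the side branch that feeds prenylation and ubiquinone, Pdss1 averaged 102.6 ± 21.8 in cKO-labelled and 161.5 ± 51.8 in WT libraries (log2 change -0.62, limma adjusted p = 0.436), with Ggps1 at 0.10 and Pggt1b at 0.09.

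Among the sensing genes 7 of 9 had a positive change, with a median of 0.19. The escort Scap averaged 886.9 ± 180.3 in cKO-labelled and 669.2 ± 126.0 in WT libraries (log2 change 0.40, limma adjusted p = 0.464), Mbtps1, the first protease to cut SREBPs, had 0.49 and Srebf1, the relative of Srebf2 that drives fatty acid synthesis, had 0.38 on the log2 scale. Scap and Mbtps1, like Srebf2, lie in the fourth of 5 equal groups of genes by length of the gene span, where the median change of all tested genes was 0.10, while Idi1, Fdps and Insig1 lie in the second, where it was -0.02. The part of gene length in these differences was not tested.

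Among the genes of uptake and transport, Stard4, a SREBP2 target that carries cholesterol between membranes, averaged 342.9 ± 44.9 in cKO-labelled and 494.7 ± 50.9 in WT libraries without overlap (SD, n = 3 each; log2 change -0.53, SE 0.20, limma adjusted p = 0.295). Scarb1, the scavenger receptor for high-density lipoprotein, had a log2 change of 0.25, Stard3 0.22 and Soat1, which esterifies cholesterol for storage, 0.14.

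Of the efflux genes Nr1h2, which encodes the ubiquitous liver X receptor, averaged 654.8 ± 92.1 in cKO-labelled and 480.1 ± 68.3 in WT libraries without overlap (log2 change 0.45, limma adjusted p = 0.376). Abca7, a close relative of Abca1, averaged 332.6 ± 69.4 in cKO-labelled and 216.1 ± 40.7 in WT libraries (log2 change 0.61, limma adjusted p = 0.319), and Abcg1, the partner pump for high-density lipoprotein, had 0.34 (limma adjusted p = 0.776). All 5 pathway genes without overlap between groups (Pmvk, Acat2, Nsdhl, Stard4 and Nr1h2) stand against 17.2% of all genes tested, so 5 of 41 is not above the background.

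The ATAC comparison asked whether chromatin over the same genes is differently open. Of the 33 regions 12 had a peak in all 6 libraries, and these are the ones that could be tested: 8 over the starts or ends of the genes, 1 for each, and 4 inside Srebf2, Lss and Abca1. Height is the tag count of the highest peak in a region, per 10000000 tags. After quantile normalization, which gives all libraries the same distribution of heights, 1 region rose in cKO-labelled libraries, over the start of Hmgcs1, and 1 fell, inside Srebf2 about 18.8 kb after its start. Of the 33531 regions tested in all, 3.67% rose and 4.33% fell.

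**Figure D3:**
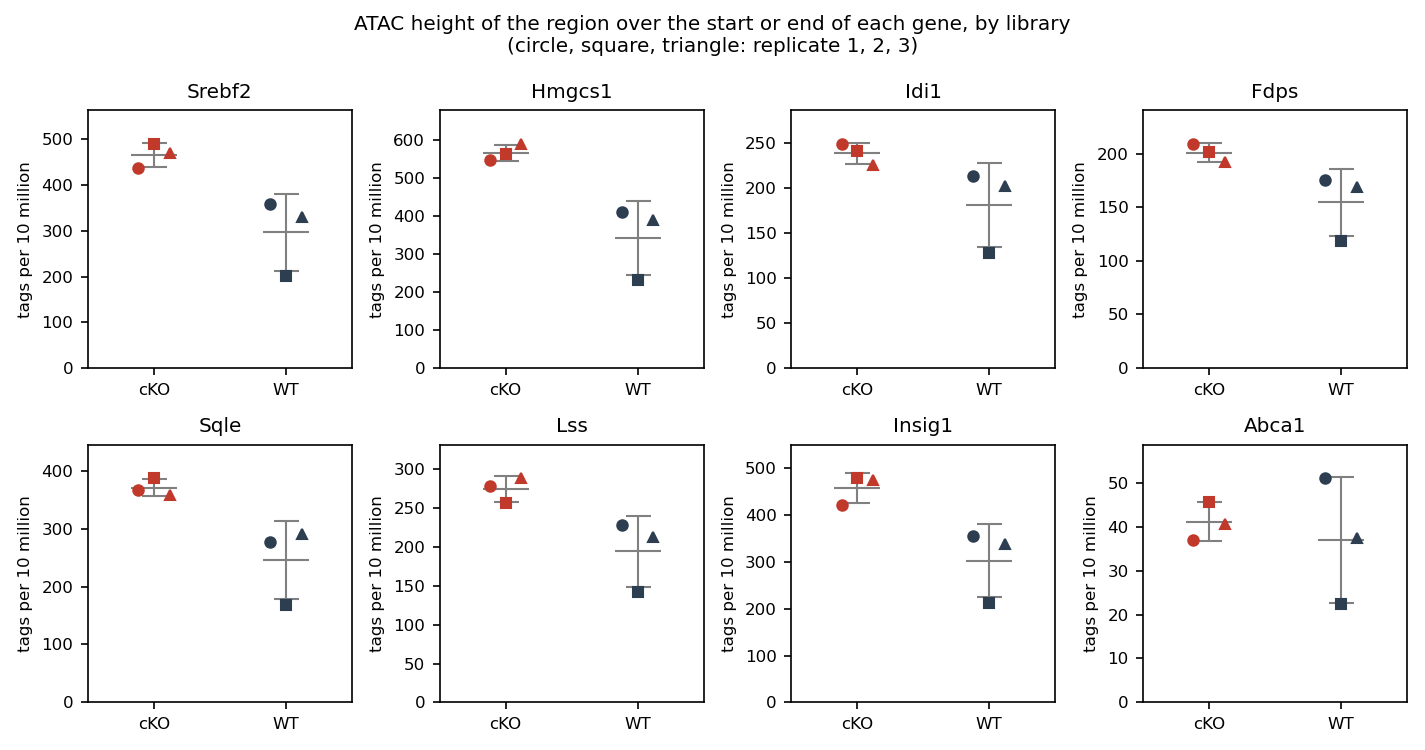
ATAC height (vertical axes, tags per 10000000, from 0, a separate scale for each gene) of the region over the start of each gene, or over 1 end for Fdps and Sqle, in each library, with cKO-labelled libraries on the left and WT on the right. Circles, squares and triangles are replicates 1, 2 and 3, long bars means and whiskers the SD (n = 3). For all genes but Abca1 the cKO-labelled libraries lie above all WT libraries, and WT replicate 2 is the lowest of the 6 for every gene.

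The Hmgcs1 start region, chromosome 13 at 119689727 to 119691796 (all regions on mm10), covers the window with the sterol regulatory element shown above. It held 545.7, 562.1 and 589.0 tags in cKO-labelled libraries, against 409.1, 231.1 and 387.8 in WT libraries. Every cKO-labelled library was above every WT library, and WT replicate 2 was far below the others. The means were 565.6 ± 21.9 in cKO-labelled and 342.7 ± 97.2 in WT libraries (SD, n = 3 each). After quantile normalization the region was 1.19-fold higher (log2 change 0.25, SE 0.06, 95% interval 0.12 to 0.37, limma adjusted p = 0.0301). The call was lost without any 1 of the cKO-labelled replicates (adjusted p = 0.0875, 0.0975 and 0.124) and kept without any 1 of the WT replicates, and for tags per kb of peak the change of 0.26 did not pass (adjusted p = 0.272).

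The Srebf2 start region, chromosome 15 at 82145898 to 82149127, held 436.3, 489.6 and 469.2 tags in cKO-labelled libraries, against 358.2, 201.3 and 328.9 in WT libraries. The groups did not overlap. The change after quantile normalization was 0.21 (SE 0.07, 95% interval 0.06 to 0.35) and did not pass (limma adjusted p = 0.0707).

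The start regions of Insig1, Lss and Idi1 showed the same separation in deposited tags, with smaller normalized differences. Insig1 (chromosome 5, 28069630 to 28072710, a region that also overlaps Gm35223) had 421.5, 478.3 and 474.9 tags in cKO-labelled libraries, against 355.9, 213.1 and 337.5 in WT libraries. Lss (chromosome 10, 76530698 to 76532626) had 278.7, 256.4 and 288.6 in cKO-labelled libraries, against 228.0, 142.7 and 212.5 in WT libraries. Idi1 (chromosome 13, 8885067 to 8886653) had 249.0, 241.1 and 225.5 in cKO-labelled libraries, against 213.3, 127.4 and 202.4 in WT libraries. In each of these regions cKO-labelled libraries stood above all WT libraries in deposited tags, and the quantile-normalized log2 changes were 0.14 for Insig1 (limma adjusted p = 0.166), 0.14 for Lss (0.231) and 0.09 for Idi1 (0.505). Normalized heights of Idi1 overlapped between the groups.

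For Fdps and Sqle the gene table used gives no strand, so their regions are named by the end they cover. The higher-coordinate end of Fdps (chromosome 3, 89100879 to 89102694) held 209.0, 201.7 and 192.0 tags in cKO-labelled libraries, against 175.5, 118.7 and 169.0 in WT libraries. The lower-coordinate end of Sqle (chromosome 15, 59314252 to 59316879) held 367.0, 386.9 and 358.6 in cKO-labelled libraries, against 277.4, 168.3 and 291.0 in WT libraries. Neither gene's groups overlapped in deposited tags, and the normalized changes were 0.09 for Fdps (limma adjusted p = 0.475) and 0.20 for Sqle (0.11), with overlap of the normalized heights for Fdps. At its other end Fdps had a low peak in all 3 cKO-labelled libraries (13.8, 9.87 and 12.5 tags) and in WT replicate 1 alone of the WT libraries (8.3 tags).

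Abca1 differed from the other 7 in its start region (chromosome 4, 53158619 to 53160392), the one with the liver X receptor repeat. It held 36.9, 45.7 and 40.7 tags in cKO-labelled libraries, against 51.0, 22.4 and 37.5 in WT libraries, and the groups overlapped. The normalized log2 change was 0.48 (limma adjusted p = 0.161). A region 37.5 kb inside Abca1 (53121347 to 53123497) held 25.5, 41.2 and 29.3 tags in cKO-labelled libraries, against 28.7, 22.6 and 25.9 in WT libraries (log2 change 0.62, SE 0.21, limma adjusted p = 0.0896).

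The region that fell lies inside Srebf2, 18.8 kb from its start to the region's centre (chromosome 15, 82163262 to 82168972). It held 104.2, 107.5 and 106.5 tags in cKO-labelled libraries, against 162.7, 120.9 and 147.9 in WT libraries. The 3 cKO-labelled values were close together and all below WT, a separation seen in 21.8% of all tested regions. The means were 106.1 ± 1.69 in cKO-labelled and 143.8 ± 21.2 in WT libraries (SD, n = 3 each), and after quantile normalization the region was at 0.646 of its WT height (log2 change -0.63, SE 0.10, 95% interval -0.85 to -0.41, limma adjusted p = 0.00859). The call held without any 1 library (limma adjusted p from 0.0107 to 0.0439). It also held under cyclic loess (log2 change -0.64, limma adjusted p = 0.00419) and for summed tags of the region (-0.63, limma adjusted p = 0.00116). It was lost with each library's median subtracted (log2 change -0.12, limma adjusted p = 0.414) and in the deposited scaling (-0.43, limma adjusted p = 0.196). The peaks there averaged 4.39 ± 0.07 kb in cKO-labelled and 5.06 ± 0.56 kb in WT libraries (SD, n = 3 each), and these lengths overlapped between the groups. Per kb of peak the log2 change was -0.04 (limma adjusted p = 0.92).

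**Figure D4:**
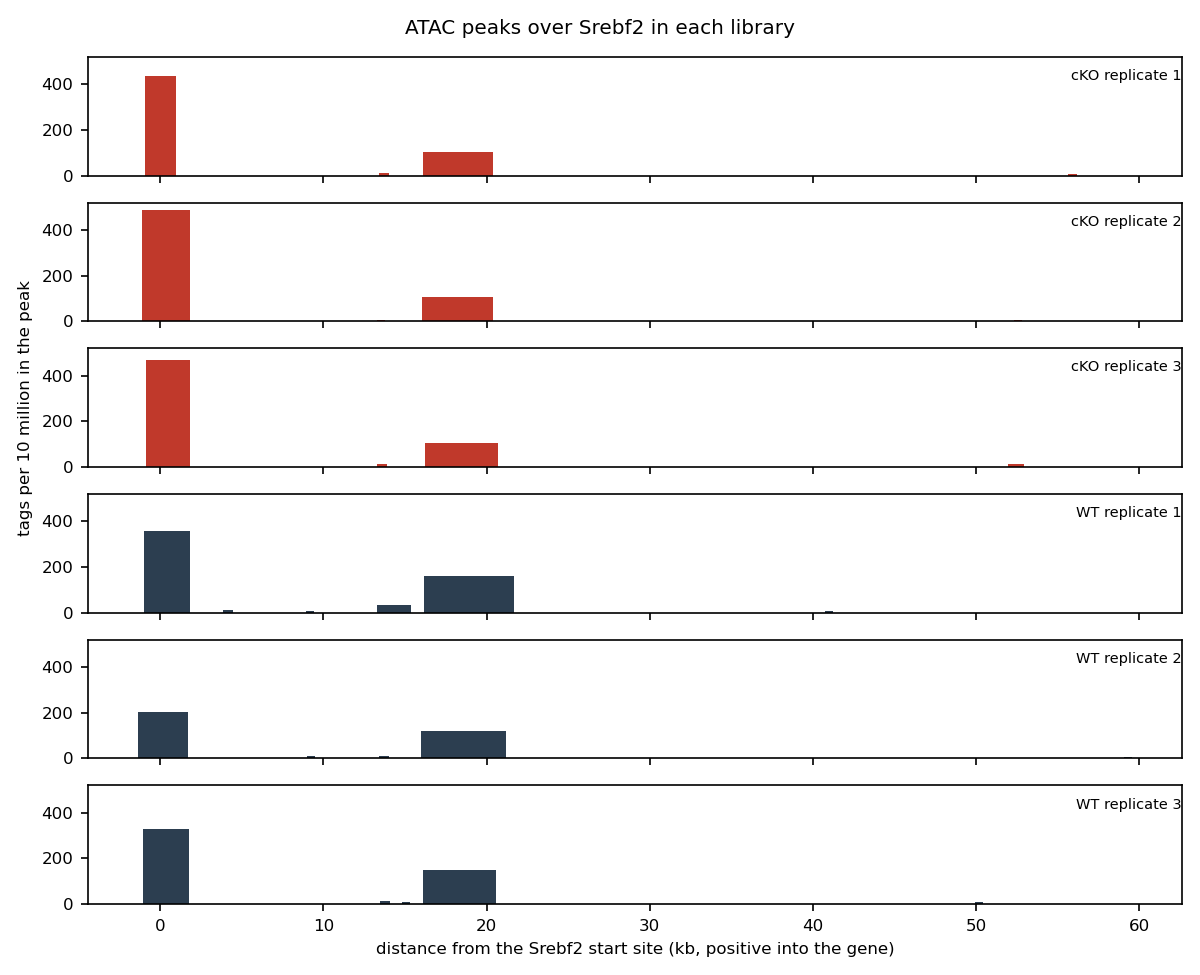
ATAC peaks along Srebf2 in each library, cKO-labelled libraries above WT, with distance from the start site in kb on the horizontal axis and tags per 10000000 in the peak on the vertical axis. Each bar is 1 called peak, as wide as the peak; the start peak is taller in all cKO-labelled libraries (436.3 to 489.6) than in WT (201.3 to 358.2), and the broad peak near 18.8 kb is lower (104.2 to 107.5 in cKO-labelled, 120.9 to 162.7 in WT).

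A smaller Srebf2 region 14.3 kb from the start (82160552 to 82162616) had 12.4, 7.61 and 12.5 tags in cKO-labelled libraries, against 35.1, 10.4 and 15.0 in WT libraries. The groups overlapped and WT replicate 1 was far above the rest (log2 change -0.28, limma adjusted p = 0.634); without that replicate the change turned to 0.12. In Lss a region 10.1 kb from the start (76539726 to 76543628) had 44.8, 49.1 and 43.3 tags in cKO-labelled libraries, against 62.3, 70.9 and 75.5 in WT libraries. These groups did not overlap, but the change of -0.51 (SE 0.20) did not pass (limma adjusted p = 0.119); without WT replicate 1 it was -0.74 and passed (adjusted p = 0.0405), and without WT replicate 2 it was -0.30 (adjusted p = 0.297). With medians subtracted it was -0.29.

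How far the start regions differ depends on how the libraries are scaled. With each library's median subtracted, 7 of the 8 start or end regions passed and were higher in cKO-labelled libraries, with log2 changes of 0.70 to 1.07 for the 7 and 0.53 for Abca1. Under this scaling 61.1% of the start regions of all genes and 28.0% of all regions were called higher. In the deposited scaling the 8 changes ran from 0.22 to 0.77, and 1 region, over the Hmgcs1 start, passed (limma adjusted p = 0.0379), against 1.37% of all regions called higher there. The median change of all regions was 0.02 after quantile normalization, 0.16 with medians subtracted and -0.15 in the deposited scaling. The 7 regions other than Abca1's lie in the highest of 10 height classes of equal size over all tested regions. In that class the median change of all regions was 0.06 after quantile normalization, 0.76 with medians subtracted and 0.46 in the deposited scaling. The sign of all 8 was positive under these 3 scalings and under cyclic loess, while per kb of peak the Idi1 start was at -0.17, and 0 of the 12 regions passed, against 2.48% of all regions.

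**Figure D5:**
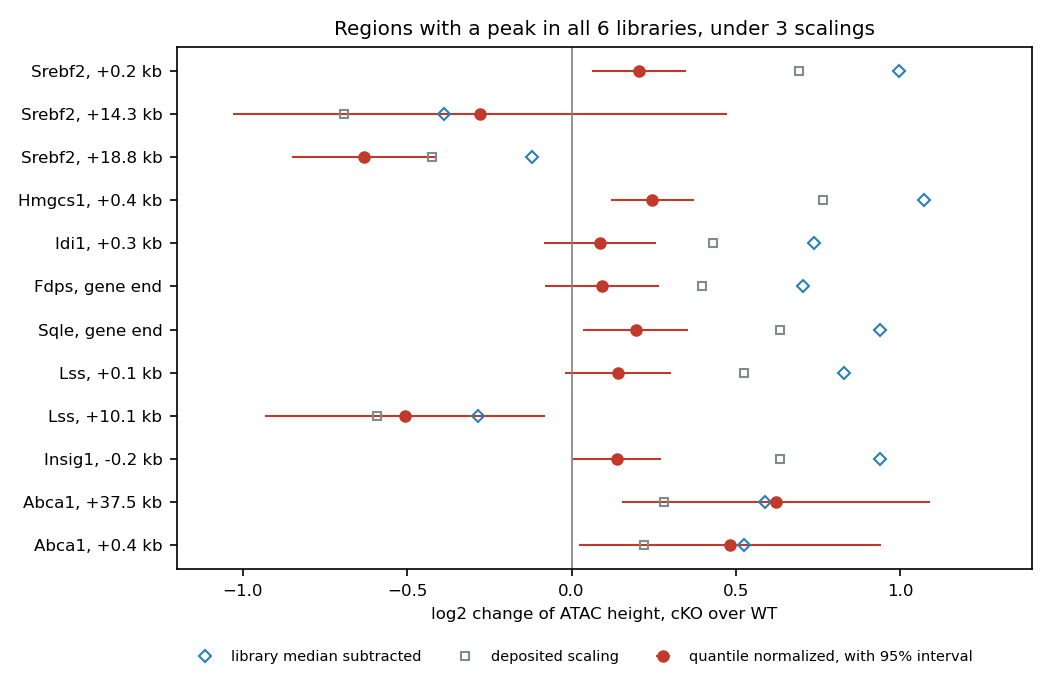
Log2 change of ATAC height, cKO over WT (horizontal axis), of the 12 regions with a peak in all 6 libraries, named by gene and by the distance of the region's centre from the start. Filled circles are quantile normalized with 95% intervals (3 libraries per group), squares the deposited scaling and diamonds the library median subtracted. The start regions lie right of 0 under all 3 scalings, from 0.09 to 0.48 when quantile normalized, and the inner regions of Srebf2 and Lss lie left of 0.

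Higher tag counts over starts were common in these data. Of the start regions of all genes 31.3% had cKO-labelled libraries above all WT libraries in deposited tags, against 7 of the 8 here, and the 7 are among the tallest. After quantile normalization all 8 changes were positive with a median of 0.17, against 69.7% positive and a median of 0.12 for the 10132 start regions of all genes, of which 5.98% were called higher. Of 34 start regions of the 47 further pathway genes 28 were positive (median 0.18), 2 rose and 1 fell after quantile normalization, against 26 called higher and 0 lower with medians subtracted. Soat1 rose, at 128.5 ± 4.12 tags in cKO-labelled and 78.6 ± 13.3 in WT libraries (SD, n = 3 each; log2 change 0.61, limma adjusted p = 0.0122). Mylip, a ubiquitin ligase gene switched on by liver X receptors, rose too, at 309.6 ± 19.3 in cKO-labelled and 183.4 ± 39.2 in WT libraries (log2 change 0.39, limma adjusted p = 0.0182). Cyp51, lanosterol demethylase, fell after quantile normalization (log2 change -0.29, limma adjusted p = 0.0443) but was at 0.38 with medians subtracted and 0.07 in the deposited scaling, with means of 213.9 ± 9.16 tags in cKO-labelled and 207.2 ± 46.2 in WT libraries.

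A ratio of 2 regions of 1 gene within a library cancels a factor common to the library, but not a difference that depends on height. The starts of Srebf2 and Lss are in the highest height class, where the median change of all regions in the deposited scaling was 0.46. It was 0.245 in class 9 of 10 (Srebf2 at 18.8 kb), -0.11 in class 7 (Lss at 10.1 kb) and -0.42 in class 2 (Srebf2 at 14.3 kb). The part of height in the ratios below was not tested. The Srebf2 region at 18.8 kb stood at 23.9%, 22% and 22.7% of its start region in cKO-labelled libraries, against 45.4%, 60.1% and 45% in WT libraries. The Lss region at 10.1 kb stood at 16.1%, 19.1% and 15% of its start in cKO-labelled libraries, against 27.3%, 49.7% and 35.5% in WT libraries. In both genes all cKO-labelled libraries were below all WT libraries, with log2 differences of the ratio of -1.12 for Srebf2 and -1.13 for Lss. The small Srebf2 region at 14.3 kb separated likewise (2.8%, 1.6% and 2.7% in cKO-labelled, 9.8%, 5.2% and 4.6% in WT), whereas the Abca1 region at 37.5 kb did not (69.1%, 90.2% and 72% in cKO-labelled, 56.3%, 100.9% and 69.1% in WT). A two-sided exact permutation test gave p = 0.1 for each of the first 3 and 0.8 for Abca1 (0.133 and 0.8 after Benjamini-Hochberg adjustment over 4 ratios), where 0.1 is the smallest p that 3 against 3 libraries allow. Such lower ratios were frequent: over 9022 pairs of an inner region and its gene's start, from 4273 genes, the median log2 difference was -0.55, with quartiles of -0.96 and -0.13, and 46.3% separated with cKO-labelled libraries lower. The Srebf2 and Lss values lie below the lower quartile, which is that of heights in all 6 libraries. The value of Lss was -0.90 without WT replicate 2, -0.91 for summed tags and -0.78 per kb of peak. That of the small Srebf2 region was -0.93 per kb of peak. These values are all above that quartile, but the quartile in their own measure or set of libraries is not known.

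The remaining 21 of the 33 regions had a peak in fewer than 6 libraries, 14 of them in 1 library only, and could not be tested. They were low, and none had a peak in all 3 cKO-labelled libraries and no WT library, or the reverse. Over Srebf2 as a whole 4 peaks were called in each cKO-labelled library, against 6, 5 and 5 in WT libraries, where the whole lists held 54133, 64289 and 56148 peaks in cKO-labelled libraries and 75017, 60069 and 64585 in WT. Their summed tags were 560.1, 611.5 and 603.4 in cKO-labelled libraries, over 7.33, 8.35 and 8.79 kb of peaks, against 579.8, 349.0 and 508.7 in WT libraries, over 12.03, 9.94 and 8.90 kb. The sums overlapped between the groups. The covered length was lower in every cKO-labelled library than in every WT library, but narrowly so (8.79 against 8.90 kb at the closest). Sqle separated the same way, also narrowly (1.94 against 1.95 kb). Abca1 separated the opposite way, at 3.62, 3.89 and 4.36 kb in cKO-labelled and 3.28, 3.42 and 3.36 kb in WT libraries. Hmgcs1, Idi1, Fdps, Lss and Insig1 overlapped. How common such a separation is over all genes was not tested.

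Set side by side, changes of the transcript and of the start or end region had opposite signs for Hmgcs1, Idi1, Fdps and Insig1. They had the same sign for Srebf2, Sqle, Lss and Abca1. The small transcript changes of Sqle (0.02) and Insig1 (-0.09), and that of Lss, changed sign under some alternatives, as did the Idi1 start per kb of peak (-0.17). Hmgcs1, whose start region rose, had a transcript log2 change of -0.29 that did not pass, and Idi1, whose transcript values separated with cKO-labelled libraries lower, had a start region at 0.09. Srebf2 had positive changes in both its transcript (0.34) and its start region (0.21), neither of which passed. The RNA and ATAC libraries are separate samples, so no value ties them library by library.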

How the data were processed

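RNA was measured in 3 cKO-labelled and 3 WT libraries and ATAC-seq in 3 and 3 others, grouped by their titles. The submitters' processing notes give the build mm10 and list, without settings, Bowtie2 2.3.5.1 and HOMER 4.11 beside STAR, RSEM 1.3.3, edgeR and DESeq2. The deposited RNA table gives a signal, namely gene counts as the authors normalized them; 0.18% of its values above 0 come within 0.001 of a whole number, so reads could not be recovered from it and no count model was run. The authors' deposited log2 fold change, p-value and adjusted p-value were used only where named; 1 gene listed under 2 symbols was kept once. In the HOMER peak lists the tag count of a peak is, per the file headers, a signal after scaling each library to 10000000 tags, with peaks called at a Poisson p-value of 0.001 and at most 1 tag per bp. The deposited peak score, a score in unscaled tags, was used only in an alternative, which kept peaks above each list's median.

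Genes with a mean of at least 10 were tested on log2(value + 1) with limma 3.58.1 (R 4.3.3, eBayes, trend included); p-values were adjusted over all of them by Benjamini-Hochberg, with a threshold of 0.05. Peaks sharing at least 1 bp were merged (Python 3.11.15, pandas 2.3.3, numpy 2.4.6), and heights of regions with a peak in all 6 lists were quantile normalized and tested likewise on log2 of height plus 1. A region belonged to a gene if it lay within 1000 bases of its span in the RefSeq gene table; 87.3% of the tested genes had a span. Exact tests used scipy 1.17.1 and figures matplotlib 3.10.9. Both fits were tested on simulated data. The genes, the pathway list, the markers and the tests were chosen with earlier results of these data known. Named pathway genes were those past the threshold or without overlap and the 3 with the smallest p in each role group; some genes of the planned list are not reported here and were left out of its counts. Named look-alikes were the 5 genes with the highest Pearson r. As alternatives, the pseudocount, the minimum level, the normalization, the variance model, the peak measure and the overlap were changed, libraries were left out in turn, the replicate number was fitted as a block, and the adjusted p of the authors' table was taken.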

Additional observations from a re-analysis of the deposited data

How the results depend on the processing

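Across the alternatives, transcript changes of the 8 genes kept direction and side of the threshold 109 times, newly passed 2 times and changed sign 7 times. The 12 regions did so 152, 8 and 4 times and lost a call 7 times. The genes called in the RNA data, 37 of 18073 with 6 higher in cKO-labelled libraries, varied most: 68 with a pseudocount of 10, 6 without the variance trend, 122 with the replicate block, 526 in the authors' deposited table, and 1 to 151 with 1 library left out (1 without WT replicate 2, 151 without cKO replicate 2). Quantile normalization gave 33, of which 17 were higher. Sample quality weights gave 1784 calls, 943 higher, with a weight of 7.43 for cKO replicate 1 against 0.437 to 1.12 for the others. Only there did any of the 8 genes pass, 2 in number: Srebf2 (log2 change 0.56, adjusted p = 0.022) and Idi1 (-0.47, adjusted p = 0.0265). The pathway list then had 6 of 41 tested. These counts stand beside the 1784 of 18073 genes called in all with weights, and were not tested against that share. Near-zero transcript changes turned sign: Sqle to -0.008 with quantile normalization and Insig1 to 0.029 with weights. With 1 library left out, Sqle ran from -0.13 (without WT replicate 2) to 0.14, Insig1 from -0.22 to 0.026 (without WT replicate 1) and Lss from -0.015 (without WT replicate 2) to 0.32.

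Called ATAC regions numbered 2681 (1229 higher), 11223 with medians subtracted (9387 higher), 3488 in the deposited scaling (459 higher), 4741 for summed tags, 833 per kb of peak, 311 in the part of each list above its median score, where fewer regions were tested, and 377 to 2067 with 1 library left out, lowest without cKO replicate 3. Of the 12 regions 2 passed, against 7 with medians subtracted, 1 in the deposited scaling, 0 per kb of peak, and 1 to 3 with 1 library left out, 1 without each cKO replicate. Per kb of peak the Srebf2 region at 14.3 kb turned to 0.18, the Idi1 start to -0.17 and the Lss region at 10.1 kb to 0.011. With 1 library left out the Srebf2 region at 14.3 kb ran from -0.52 to 0.12 (without WT replicate 1). The cause was not tested.

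The labels do not say that equal replicate numbers pair libraries. Deviations from group means correlated at 0.12, 0.21 and -0.06 between RNA libraries of equal number, and at -0.02, -0.01 and 0 between ATAC libraries. With the replicate number as a block 0 of the 8 genes and 2 of the 12 regions passed, and 2141 regions in all. The raw RNA depth is unknown, so what it limits cannot be given; Abca1 RNA was near the minimum level for a test and gave no value without cKO replicate 1.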
